A study of Mus musculus with 6 samples.

Results

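The proteasome is the protease complex that degrades ubiquitin-tagged proteins in the cytosol and nucleus. The mRNAs of its subunits were compared between pancreatic islets of diabetic db/db mice and those of db/m control mice. The genes were chosen by name, as the protein-coding rows of the count table whose symbol starts with Psma, Psmb, Psmc, Psmd, Psme or Psmf and a number, without the immunoproteasome genes Psmb8, Psmb9 and Psmb10. This gave 42 of the 22530 protein-coding genes and of the 44713 genes in the table. Of these, 16 encode the core particle (8 of the alpha ring and 8 of the beta ring), 20 belong to the regulatory particle (6 ATPases and 14 Psmd genes), and 5 encode the proteasome activators Psme1, Psme2, Psme3 and Psme4 and the inhibitor Psmf1. The symbol of Psmc3ip also matched, although this gene encodes a partner of recombination proteins and no subunit.

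Islet samples of 3 db/db and 3 db/m animals were profiled by RNA-seq of rRNA-depleted total RNA. All mice were male, 10 weeks old at islet isolation and fed a normal diet, the db/m mice were littermates, and no other treatment is named. The sample labels give the genotype Lepr-/- for db/db and wild type for db/m, on a C57BL/6 strain, whereas the methods of the study name the line BKS.Cg-Dock7m+/+Leprdb/Nju. In a line of that name db/m animals carry a db allele beside a working one, so that they are controls by phenotype rather than strict wild types. The leptin receptor defect of db/db animals is in all tissues and is known to make them obese and hyperglycemic. The methods describe 6 samples from 3 mice of either genotype, so that each library is taken as a mouse.

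The proteasome is built as a barrel with a cap. The core particle stacks alpha rings, which form the gate, around beta rings, in which Psmb5, Psmb6 and Psmb7 carry the chymotrypsin-like, caspase-like and trypsin-like activities. The regulatory particle binds ubiquitinated substrates, removes the ubiquitin and threads the unfolded protein into the core with its ring of ATPases. In β cells, which make large amounts of secretory protein, the proteasome clears misfolded proteins drawn out of the endoplasmic reticulum. Transcription of most subunit genes can be raised together by the factor Nfe2l1, which acts through antioxidant response elements.

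The libraries held between 15641797 and 20614531 counts. The tissue label was checked against marker genes of pancreatic cell types. The islet hormone genes Ins1 and Ins2 were present in all libraries, at 0.121% to 0.502% of the counts in db/db islets and 0.605% to 3.75% in db/m islets. A list of 29 markers of acinar cells, the enzyme-secreting cells around the islets, took 70.9% to 77.3% of the counts in db/db islets and 53.7% to 69.1% in db/m islets. Acinar markers thus held the larger part of the counts in every library, so that the RNA was not of islet cells alone. The study stained isolated islets for insulin to check that they were free of acinar cells, and describes most cells as positive. A share of counts is not a share of cells. The word islets is used here as the sample label, and the levels given are those of the mixed tissue. Of 15 β-cell markers, 13 had an unadjusted p under 0.05 in the quasi-likelihood test of edgeR, all 13 lower in db/db islets, and of the 29 acinar markers 4 did, all 4 higher. Over all 12760 tested genes the share with such a p was 14.9%, made up of 5.04% with the higher and 9.89% with the lower level in db/db. Of the tested markers of other endocrine cells, duct, endothelium, stroma and leukocytes, 0 of 5, 3 of 7, 1 of 6, 1 of 7 and 2 of 8 had such a p. In bulk tissue, fewer cells of a type and less RNA per cell cannot be told apart. The libraries db/db replicate 1 and db/m replicate 1 stood apart at either end, with TMM factors (the scaling that makes most genes comparable between libraries) of 0.605 and 1.75, against 0.919 to 1.06 in the other 4.

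Promoter sequences of RefSeq (GRCm38.p6), 250 bases before to 50 bases after the transcription start, were at hand for 35 of the 42 genes. Those of 4 core genes are shown, because Psma7 and Psmb3 had the highest log2 fold changes of the core particle and Psmb5 and Psmb6 encode catalytic subunits. Capitals mark the CCAAT box (CCAAT) and the antioxidant response element (TGACNNNGC), each searched on both strands. The windows are chr2:180042415-180042714 on the reverse strand for Psma7, chr11:97703184-97703483 on the forward strand for Psmb3, chr14:54617946-54618245 on the reverse strand for Psmb5 and chr11:70525107-70525406 on the forward strand for Psmb6, each written 5′ to 3′.
Psma7: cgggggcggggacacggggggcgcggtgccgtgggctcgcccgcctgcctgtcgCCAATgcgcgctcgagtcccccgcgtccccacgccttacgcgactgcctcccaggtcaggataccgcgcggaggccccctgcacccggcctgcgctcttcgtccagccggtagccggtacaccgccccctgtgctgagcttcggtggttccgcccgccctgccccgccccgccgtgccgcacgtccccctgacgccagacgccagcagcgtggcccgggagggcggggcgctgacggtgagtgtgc
Psmb3: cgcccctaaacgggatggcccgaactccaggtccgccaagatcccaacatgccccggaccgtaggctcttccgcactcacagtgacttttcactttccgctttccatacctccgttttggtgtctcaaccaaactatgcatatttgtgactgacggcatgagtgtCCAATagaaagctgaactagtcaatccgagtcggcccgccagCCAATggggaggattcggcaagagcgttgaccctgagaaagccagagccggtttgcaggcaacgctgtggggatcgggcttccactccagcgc
Psmb5: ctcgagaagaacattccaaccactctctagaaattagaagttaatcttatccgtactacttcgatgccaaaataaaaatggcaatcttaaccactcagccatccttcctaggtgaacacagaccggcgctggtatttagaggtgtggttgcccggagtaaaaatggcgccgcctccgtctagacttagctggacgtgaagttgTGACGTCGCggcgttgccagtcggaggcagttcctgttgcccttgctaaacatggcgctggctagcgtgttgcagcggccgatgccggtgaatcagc
Psmb6: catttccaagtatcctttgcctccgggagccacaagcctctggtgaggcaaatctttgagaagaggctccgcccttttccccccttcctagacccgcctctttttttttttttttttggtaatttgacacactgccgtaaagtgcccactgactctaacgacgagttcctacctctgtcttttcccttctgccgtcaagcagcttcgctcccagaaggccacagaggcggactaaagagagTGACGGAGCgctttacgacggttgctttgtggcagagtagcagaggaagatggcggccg
The promoter of Psmb3 held CCAAT boxes starting at -85 and -43 from the transcription start, and that of Psma7 held a CCAAT box at -196. In Psmb5 and Psmb6 the antioxidant response element started at -47 and -9. The annotated gene Psmb6 begins at 70525324, before the start site used for its window, so that its element lies within the gene. The antioxidant response element was found in 6 of the 35 promoters (17.1%), against 14% of the promoters of all 27025 genes in the RefSeq table. The CCAAT box was found in 7 of 12 core promoters (58.3%) and 5 of 17 regulatory promoters (29.4%), against 41.1% of all genes. The GC box (GGGCGG) was found in 5 of 12 core promoters (41.7%) and 13 of 17 regulatory promoters (76.5%), against 38.2% of all genes. The heat shock element (GAANNTTC) was found in 2 of the 35 promoters (5.71%), against 9.04% of all genes. The motifs may overlap each other, and a match of letters is not a measured binding site.

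Of the 42 genes, 38 passed edgeR's filter on low counts. The exceptions were 3 core genes and Psmc3ip. Psma8, the alpha subunit of the testis proteasome, had 1 count in db/db replicate 2, 1 count in db/m replicate 3 and 0 counts in the other 4 libraries. Psmb11, the beta subunit of the thymus proteasome, was at 0 in all 6 libraries, and Psmc3ip had 7 counts in db/m replicate 1, 1 in db/m replicate 2 and 0 elsewhere. A count of 0 allows a level of up to 0.146 to 0.192 CPM (the count scaled to a common library total), for counting error alone. This limit is taken at 3 counts and by library size, without the TMM factors. The CPM levels of genes given below are after TMM unless library size is named. Psma6, an alpha-ring subunit that the proteasome of every cell contains, was also listed at 0 in all 6 libraries. The gene spans 55384222 to 55418459 on chromosome 12 of GRCm38.p6, no exon of another gene overlaps it, and 0% of the 50-base stretches of its coding transcripts were found elsewhere in the genome. A listed 0 for such a gene is no measure of its expression, and Psma6 was in none of the tests. Its promoter is among the core promoters counted above, and its zeros are among the counts summed over the 42 genes.

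The 38 tested genes were read with between 19 counts (Psme2 in db/db replicate 1) and 1021 counts (Psmd2 in db/m replicate 1) per library. Together the 42 genes took 0.0472% (95% Clopper-Pearson interval, 0.0463% to 0.0482%), 0.0631% (0.0619% to 0.0643%) and 0.0581% (0.0569% to 0.0593%) of the counts in db/db replicates 1, 2 and 3. In db/m replicates 1, 2 and 3 they took 0.0941% (0.0926% to 0.0956%), 0.0579% (0.0567% to 0.0590%) and 0.0638% (0.0626% to 0.0649%). These intervals cover the counting of reads within a library and not the variation between mice. The groups overlapped, with db/m replicate 1 far above the other 5 mice and db/db replicate 1 the lowest. After the acinar marker genes were set aside, the 42 genes took 0.208%, 0.221% and 0.200% of the remaining counts in db/db islets and 0.203%, 0.173% and 0.206% in db/m islets. On this scale db/m replicate 2 was the lowest and db/db replicate 2 the highest. The part of the acinar share in these levels was not tested.

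No proteasome gene passed the threshold between db/db and db/m islets. With edgeR, 0 of 38 genes had an adjusted p under 0.05, against 0.619% of the 12760 tested genes, and DESeq2 gave 0 as well. The adjusted p-values from edgeR lay between 0.248 and 0.990. The unadjusted p was under 0.05 for 3 genes, Psmb3, Psma7 and Psmd5, which is 7.89% of 38, against 14.9% of all tested genes. All 3 had the higher level in db/db islets, a direction in which 5.04% of all tested genes had such a p, while 0 proteasome genes were on the lower side, where 9.89% of all tested genes were. With DESeq2 there were 2 such genes, against 9.91% of all genes tested there. Leaving out db/db replicate 1, db/m replicate 1 or db/m replicate 2 gave 0 genes, against 10.9%, 10.8% and 11.2% of all tested genes. Leaving out db/db replicate 3 gave 1 gene, against 10.8% of all. Leaving out db/db replicate 2 gave 2, against 13.7%, and leaving out db/m replicate 3 gave 5, against 19.8%. The levels of the groups after TMM did not overlap for 8 of the 38 genes (21.1%). With direction left aside, the same share was found over all tested genes (21.1%). By direction the shares differed. Of the 8 proteasome genes, 7 had the higher level in db/db islets and 1 the lower. Of all 12760 tested genes, 1089 had the higher level without overlap and 1602 the lower.

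**Figure D1:**
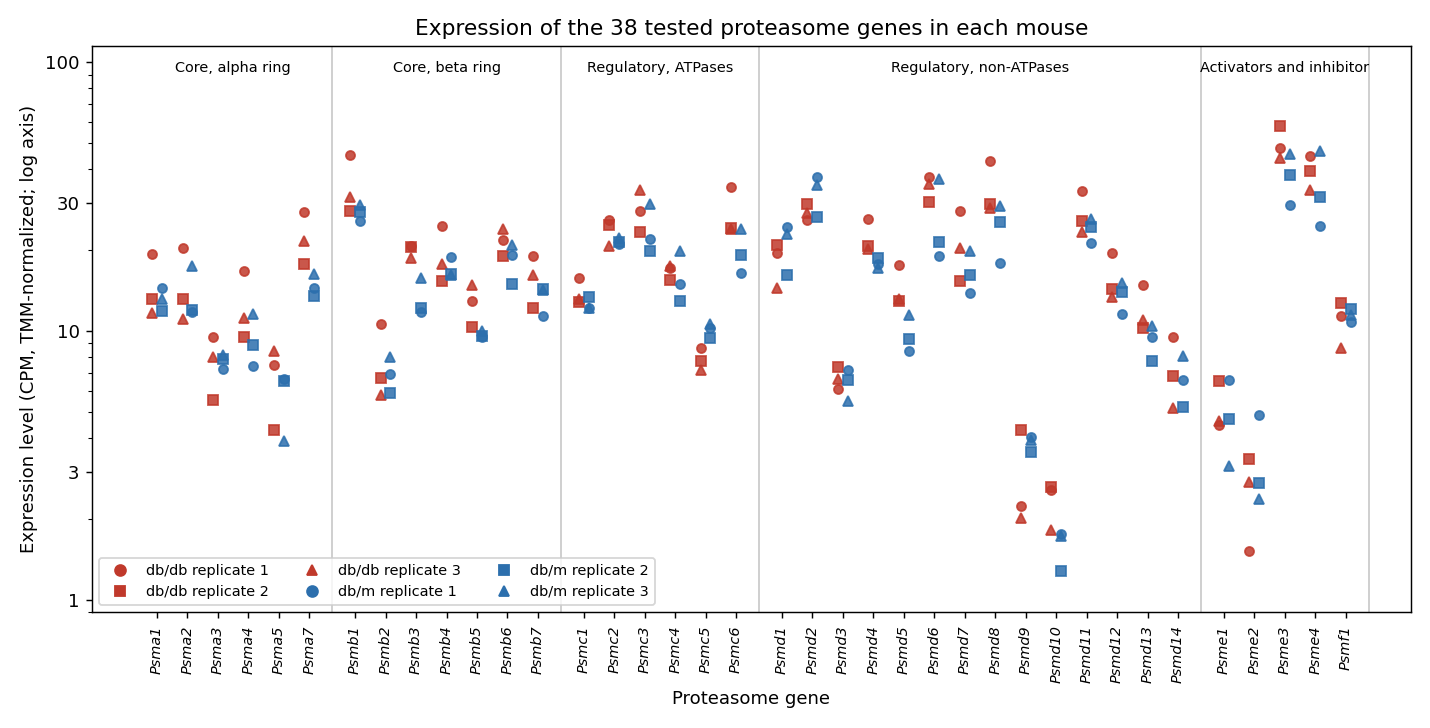
Expression level of each tested proteasome gene (CPM after TMM normalization, log axis) in the 3 db/db mice (red) and 3 db/m mice (blue), with a symbol for each mouse. For most genes the red and blue points overlap, db/db replicate 1 is often the highest point, and Psmc5 is the gene whose 3 red points all lie below the blue ones.

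The log2 fold changes of the 38 genes, db/db against db/m, were small and mostly above 0. They lay between -0.42 and 0.60, with a median of 0.21, and 31 of the 38 (81.6%) were above 0, against a median of -0.00093 and 49.9% above 0 over all tested genes. The 95% interval of the fold change stayed within 2-fold in either direction (a log2 fold change of 1) for 27 of the 38 genes. The median half-width of the interval was 0.56, while it was 0.71 over the 8987 tested genes in the same range of expression. The biological coefficient of variation had a median of 0.245 in the proteasome genes and of 0.292 in those 8987 genes. The highest level of a gene among the 6 mice was in db/db replicate 1 for 22 of the 38 genes, and the lowest was in db/m replicate 1 for 14. With each mouse left out in turn, between 26 (without db/db replicate 1) and 32 of the 38 genes were above 0. The exons of a gene added up to a median of 1507.5 bases in the proteasome genes and 3659 bases in all tested genes. The part of this length in the fold changes was not tested.

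The direction depended on how the libraries were scaled. With library size alone in place of TMM, 37 of the 38 genes had a log2 fold change below 0 and 1, Psmb3, above 0. Of all 12760 tested genes, 11102 were below 0 with that scaling, so that most of the table moved the same way. Under that scaling the median of all tested genes moved to -0.59, and the proteasome genes had a median of -0.39. Relative to the median of all tested genes, core genes were 0.24 higher with TMM and 0.22 higher with library size, and regulatory genes 0.21 and 0.20 higher. A change of scaling moves all genes by about the same amount, so that these values are not separate checks. With the level of the acinar markers as a covariate in edgeR, the distances were 0.091 for core and -0.011 for regulatory genes. With each mouse left out in turn, they lay between 0.134 and 0.425 for core genes and between 0.117 and 0.327 for regulatory genes. At an unadjusted p under 0.05 with library size, 1 gene, Psmc5, was lower in db/db islets, against 18.6% of all tested genes. Groups that did not overlap, with the lower level in db/db islets, were found for 3 of 38 genes (7.89%) against 25.5% of all tested genes.

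**Figure D2:**
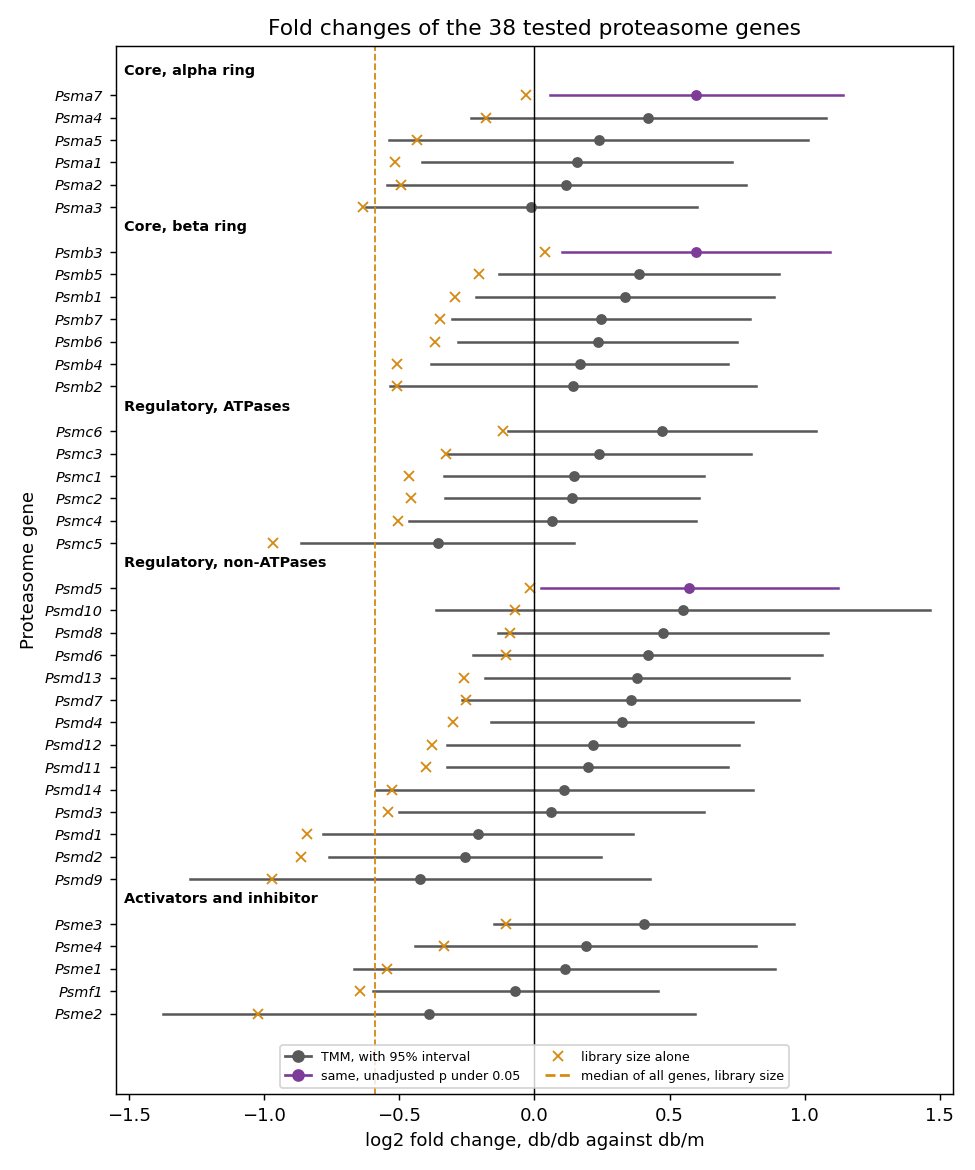
Log2 fold change of each tested proteasome gene, db/db against db/m, with TMM normalization (circles, with 95% intervals from edgeR) and with library size alone (crosses). The dashed line is the median of all tested genes with library size, -0.59. The crosses of most genes lie to the right of that line but left of 0, and 3 intervals, those of Psma7, Psmb3 and Psmd5, lie above 0.

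In the alpha ring, whose members form the gate of the core, 5 of the 6 tested genes had a log2 fold change above 0 (median 0.20). Psma7, on the reverse strand of chromosome 2 from 180036367 to 180042464, had the highest. Its level was 27.8, 17.8 and 21.7 CPM in db/db replicates 1, 2 and 3 and 14.5, 13.5 and 16.3 CPM in the same order in db/m. Every db/db value exceeded every db/m value, and the log2 fold change was 0.60 (standard error, SE, 0.24, edgeR unadjusted p = 0.0337, adjusted p = 0.286). With library size the value was -0.033 and the groups overlapped. Psma4 had 12.5 ± 3.77 CPM in db/db islets (SD, n = 3) and 9.30 ± 2.10 in db/m islets. An exon of AY074887 overlaps it on the other strand, and whether the counting used strand is not given in the sources used here. The alpha genes with the lowest log2 fold changes were Psma2, at 0.12, and Psma3, at -0.012. Psma2 had 14.9 ± 4.93 CPM in db/db islets (SD, n = 3) and 13.7 ± 3.22 in db/m islets. Psma3 had 7.71 ± 2.01 CPM in db/db islets (SD, n = 3) and 7.76 ± 0.481 in db/m islets, with a 95% interval of its log2 fold change from -0.62 to 0.60.

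In the beta ring, which holds the active sites, all 7 tested genes had a log2 fold change above 0 (median 0.25). With library size 6 of the 7 were below 0, as were 11102 of all 12760 tested genes. Psmb3, a subunit without an active site, lies on the forward strand of chromosome 11 from 97703434 to 97713500. It had 20.8, 20.57 and 18.8 CPM in db/db islets and 11.8, 12.2 and 15.7 CPM in db/m islets. With TMM the groups did not overlap and the p was the smallest of all 38 genes, and the log2 fold change was 0.60 (SE 0.22, edgeR unadjusted p = 0.0229, adjusted p = 0.248, with adjusted p between 0.131 and 0.951 in the alternative analyses). With library size the log2 fold change of Psmb3 was 0.039, its unadjusted p from edgeR was 0.910 and the groups overlapped. Of the 50-base stretches of Psmb3, 63.5% are also found elsewhere in the genome, so that its count depends on how reads with several matches were treated. Psma5, Psmb5 and Psme2 likewise share 56.6%, 55.3% and 54.9% of their stretches, while 20 of the 42 genes share 0%.

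None of the 3 catalytic subunits passed the test between the groups in edgeR. Psmb5, which carries the chymotrypsin-like site, had 13.005, 10.3 and 14.8 CPM in db/db islets and 9.51, 9.61 and 10.017 CPM in db/m islets. The lowest db/db mouse was just above the highest db/m mouse, and the log2 fold change was 0.39 (SE 0.23, edgeR adjusted p = 0.468). Psmb6, which carries the caspase-like site, had 21.9, 19.1 and 23.9 CPM in db/db islets and 19.3, 14.97 and 20.95 CPM in db/m islets. These values overlapped, with a log2 fold change of 0.23 and a 95% interval from -0.28 to 0.75. Psmb7, which carries the trypsin-like site, had 19.0, 12.2 and 16.1 CPM in db/db islets and 11.3, 14.4 and 14.2 CPM in db/m islets. Its groups overlapped as well, with a log2 fold change of 0.25 and a 95% interval from -0.31 to 0.80. Among the other beta subunits, Psmb1 had 34.9 ± 8.97 CPM in db/db islets (SD, n = 3) and 27.6 ± 1.90 in db/m islets, and the large spread in db/db islets came from 45.0 CPM in replicate 1. Psmb2 had 7.69 ± 2.56 CPM in db/db islets (SD, n = 3) and 6.94 ± 1.07 in db/m islets.

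In the regulatory particle, 16 of the 20 genes had a log2 fold change above 0 (median 0.21). With library size all 20 were below 0, as were 11102 of all 12760 tested genes. Of the 6 ATPases, which unfold substrates, 5 were above 0 (median 0.14). Psmc5, on the forward strand of chromosome 11 from 106256185 to 106263112, was the exception. It had 8.67, 7.77 and 7.20 CPM in db/db islets and 10.2, 9.43 and 10.6 CPM in db/m islets. Every db/db value was below every db/m value, with a log2 fold change of -0.36 (SE 0.22, edgeR adjusted p = 0.489), and this was the only one of the 38 genes with the lower level in db/db islets and no overlap. With library size the value was -0.97 (unadjusted p = 0.0301 and adjusted p = 0.234 from edgeR), where the median of all tested genes was -0.59. Psmc6, another ATPase, had 34.4, 24.1 and 24.1 CPM in db/db islets and 16.4, 19.2 and 23.9 CPM in db/m islets. Its groups were separated by less than the spread within either of them, with an adjusted p of 0.424 from edgeR.

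The lid is the part of the regulatory particle that removes ubiquitin and holds the deubiquitinase Psmd14. Its 8 Psmd genes all had a log2 fold change above 0, with a median of 0.29 and values between 0.062 and 0.47. The groups overlapped for all 8. Psmd8 had 33.7 ± 7.86 CPM in db/db islets (SD, n = 3) and 24.3 ± 5.76 in db/m islets, and Psmd6 had 34.3 ± 3.62 and 25.7 ± 9.61. In contrast, the scaffold genes of the base, Psmd1 and Psmd2, had log2 fold changes of -0.21 and -0.26. Psmd2 had 25.8, 29.6 and 27.4 CPM in db/db islets and 37.5, 26.7 and 34.8 CPM in db/m islets. These groups overlapped through db/m replicate 2, and the standard error of the log2 fold change was 0.22 (adjusted p = 0.619 from edgeR). Psmd4, a ubiquitin receptor of the base, had 22.4 ± 3.31 CPM in db/db islets (SD, n = 3) and 17.9 ± 0.764 in db/m islets without overlap, at an adjusted p of 0.513 from edgeR.

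Psmd5, Psmd9 and Psmd10 encode chaperones that help to assemble the base and are not part of the finished particle. They held both the highest and the lowest value of the regulatory genes. Psmd5, on the reverse strand of chromosome 2 from 34852087 to 34870965, had 17.6, 12.9 and 13.2 CPM in db/db islets and 8.44, 9.38 and 11.5 CPM in db/m islets. Every db/db value exceeded every db/m value, and the log2 fold change was 0.57 (SE 0.24, edgeR unadjusted p = 0.0423, adjusted p = 0.312), against -0.016 with library size. Psmd10 had 2.57, 2.63 and 1.82 CPM in db/db islets and 1.76, 1.28 and 1.73 CPM in db/m islets. This is a small distance at 22 to 48 counts per library, with a 95% interval of the log2 fold change from -0.37 to 1.46. Exons of Atg4a overlap Psmd10 on the other strand. Psmd9 had 2.25, 4.30 and 2.02 CPM in db/db islets and 4.04, 3.55 and 3.95 CPM in db/m islets, so that db/db replicate 2 lay above all db/m mice and the other db/db mice below them. Its log2 fold change was -0.42 (SE 0.38, edgeR adjusted p = 0.626).

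Core and regulatory particle were compared within each mouse, where the scaling of the library cancels out. The mean log2 CPM of the 13 tested core genes minus that of the 20 regulatory genes was 0.11, -0.25 and 0.076 in db/db replicates 1, 2 and 3 and -0.090, -0.066 and -0.18 in db/m islets. The db/m mice lay inside the range of the db/db mice. The mean difference was -0.020 ± 0.20 (SD, n = 3) in db/db islets and -0.11 ± 0.061 in db/m islets, a distance of 0.093 that is below the spread among the db/db mice. The median log2 fold changes of core and regulatory genes, 0.24 and 0.21, were 0.031 apart. Without the 3 assembly chaperones the regulatory median was 0.20, and without the core genes that share at least 50% of their stretches with the genome the core median was 0.20 as well. Both selections were chosen after the values were seen.

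**Figure D3:**
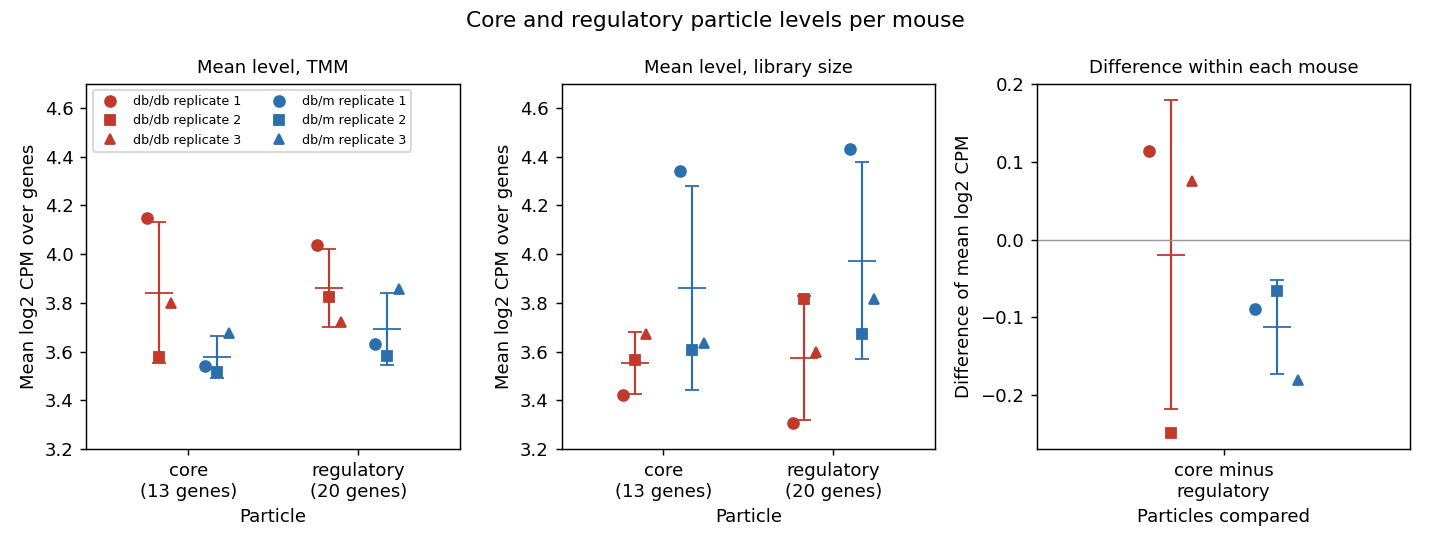
Mean log2 CPM of the core genes and of the regulatory genes in each mouse after TMM normalization (left) and by library size (middle), and their difference within each mouse (right), with group means and SD bars. After TMM, db/db replicate 1 is the highest point of both particles (4.15 and 4.04), whereas by library size it is the lowest and db/m replicate 1 is the highest (4.34 and 4.43).

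The mean log2 level of the core genes after TMM was 3.84 ± 0.29 (SD, n = 3) in db/db islets and 3.58 ± 0.086 in db/m islets. That of the regulatory genes was 3.86 ± 0.16 and 3.69 ± 0.15. By library size the core means were 3.55 ± 0.13 and 3.86 ± 0.42, and the regulatory means 3.57 ± 0.25 and 3.97 ± 0.40. In each of these comparisons the groups overlapped. The share of acinar counts moved with the groups in the same libraries. With the acinar marker score of each library (mean log2(CPM + 1) of the 29 markers) as a covariate in edgeR, the median log2 fold change was 0.047 for core genes and -0.055 for regulatory genes, with 19 of the 38 genes above 0 and 19 below. The acinar share differs between the groups, so that its part and that of the genotype cannot be told apart in these fits. Without db/db replicate 1 the medians were 0.12 and 0.10.

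The levels of the genes were compared with each other after division by exon length (CPM per kb of all annotated RefSeq exons of a gene). In the core, Psmb1 was the highest, with 26.7 ± 1.84 CPM per kb (SD, n = 3) in db/m islets and 33.7 ± 8.66 in db/db islets, and Psma3 the lowest, with 2.66 ± 0.165 and 2.64 ± 0.690. The highest and the lowest core gene in db/m islets thus differed by 10.02-fold, although the subunits enter the particle in equal numbers. The exons annotated for Psma3 add up to 2915 bases, against a median of 1057 bases in the core, and the level per kb depends on that length. Of the 50-base stretches of Psma3 31.1% are also found elsewhere in the genome, and of those of Psma5, the next lowest, 56.6%. The counts of both depend on how reads with several matches were treated. Psmb3, Psmb4 and Psmb6 followed Psmb1, and from Psmb3 down to Psma4 no gene was apart from the next when the 3 db/m mice were compared. In all, 9 of the 12 neighbours in the core order and 15 of the 19 in the regulatory order overlapped. In the regulatory particle Psmd6 was the highest, with 19.2 ± 7.19 CPM per kb (SD, n = 3) in db/m islets, and Psmd10 the lowest in db/m islets, with 1.09 ± 0.185, a 17.6-fold range. The chaperones Psmd9 and Psmd10 were the lowest regulatory genes in both groups. The first 7 core genes had the same order in both groups, and across the 13 core and the 20 regulatory genes the log2 levels of the groups had a correlation of 0.984 and 0.969, where the genes share libraries and are not independent.

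**Figure D4:**
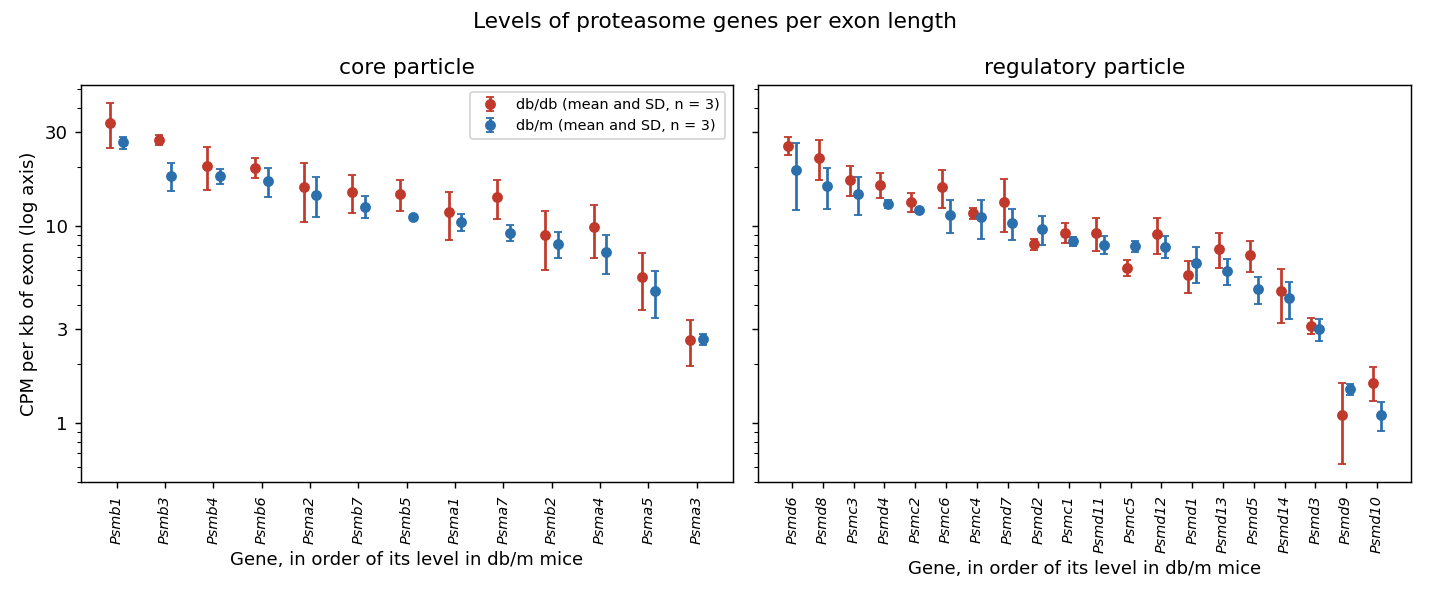
Expression level per kb of exon (log axis) of the tested core genes (left) and regulatory genes (right), in the order of the db/m means; points are means and bars SD over 3 mice. The order is similar in db/db (red) and db/m (blue) mice, from Psmb1 down to Psma3 and from Psmd6 down to Psmd9 and Psmd10.

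Activators cap the core in place of the regulatory particle. None of their 4 genes nor the inhibitor Psmf1 had groups without overlap, and their log2 fold changes lay between -0.39 and 0.41. Psme3, which forms the nuclear activator, had 48.01, 57.8 and 43.9 CPM in db/db islets and 29.4, 37.97 and 45.6 CPM in db/m islets. Only db/m replicate 3 reached into the range of the db/db mice (log2 fold change 0.41, SE 0.25, edgeR adjusted p = 0.477). Psme1 and Psme2, the interferon-inducible pair that forms the other ring-shaped activator, were low. Psme1 had 5.22 ± 1.13 CPM in db/db islets (SD, n = 3) and 4.82 ± 1.74 in db/m islets, and Psme2 had 2.54 ± 0.930 and 3.33 ± 1.35. Without db/m replicate 1, in which Psme2 was at 4.88 CPM, its log2 fold change was 0.021 in place of -0.39. Psme4, a large single-chain activator, had 39.2 ± 5.58 CPM in db/db islets (SD, n = 3) and 34.4 ± 11.4 in db/m islets, and Psmf1 had 10.9 ± 2.04 and 11.5 ± 0.616. Exons of other genes lie on the opposite strand of Psme1 (Emc9), Psme4 (Erlec1) and Psmf1 (Tmem74b).

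The other genes of the pathway, from lists for the immunoproteasome, further subunits, assembly, transcriptional control, ubiquitin and its carriers, held 34 genes, of which 32 were tested. Of these 0 had an adjusted p under 0.05 with edgeR and 3 an unadjusted p under 0.05, 1 with the higher and 2 with the lower level in db/db islets, and 7 of 32 (21.9%) had groups without overlap. Over all tested genes 14.9% had such a p and 21.1% had groups without overlap, so that these counts are near or below the share over all genes. Ubb, a gene for polyubiquitin, had 63.7, 49.3 and 62.5 CPM in db/db islets and 93.1, 83.5 and 79.7 CPM in db/m islets. Every db/db value was below every db/m value, with a log2 fold change of -0.55 (SE 0.23, edgeR unadjusted p = 0.0381, adjusted p = 0.299). Zfand5, which encodes a proteasome-binding protein, had 12.5 ± 2.86 CPM in db/db islets (SD, n = 3) and 18.9 ± 1.61 in db/m islets, with an adjusted p of 0.291 from edgeR. Ubqln4, a shuttle for ubiquitinated proteins, had 39.6 ± 4.61 CPM in db/db islets (SD, n = 3) and 25.03 ± 8.54 in db/m islets, with an adjusted p of 0.322 from edgeR. With library size, where the median of all tested genes was -0.59, the log2 fold changes were -1.18 for Ubb, -1.22 for Zfand5 and 0.16 for Ubqln4, the last with an unadjusted p of 0.594 from edgeR.

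Nfe2l1, the transcription factor of the proteasome genes, had 40.9, 71.5 and 80.1 CPM in db/db islets and 82.7, 69.2 and 81.1 CPM in db/m islets. Only db/db replicate 1 was apart from the others (log2 fold change -0.28, SE 0.29, edgeR adjusted p = 0.687). Pomp, which helps to assemble the core, was low, with 2.02 ± 0.667 CPM in db/db islets (SD, n = 3) and 1.95 ± 0.578 in db/m islets. Of the immunoproteasome subunits, which replace the catalytic ones under interferon, Psmb9 did not pass the filter, with 0 to 20 counts per library. Psmb8 had 71 counts in db/m replicate 1 and 4 to 16 in the other libraries. The summed level of 8 leukocyte markers was 19.7 to 72.0 CPM in db/db and 6.93 to 52.3 CPM in db/m, and its part in the immunoproteasome values was not tested. Psmb10 varied more between mice of a group than any core gene, with 36.3, 16.8 and 28.5 CPM in db/db islets and 21.3, 7.51 and 35.6 CPM in db/m islets, and its groups overlapped.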

How the data were processed

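RNA-seq of 3 db/db and 3 db/m islet samples was used. The authors deposited whole-number read counts for each gene symbol, with 1 column per sample and no normalization. According to the methods the reads were mapped to mm10 with TopHat, while the submitters' processing notes name HISAT2 2.0.4; the counting program, the annotation and the use of strand are not given in the sources used here. Differences were tested with edgeR 4.0.16 under R 4.3.3 (filterByExpr, TMM factors, quasi-likelihood F-test over 12760 genes, Benjamini-Hochberg adjustment, threshold 0.05). The standard error (SE) was the absolute log2 fold change over √F, and 95% intervals used the t distribution with edgeR's degrees of freedom. Alternatives were DESeq2 1.42.0, library size, upper-quartile factors, other filters, leaving out abundant genes, a block for replicate number, an acinar covariate and leaving out each mouse. The fit was also run on simulated counts, with less spread between samples than in these data and larger changes than the proteasome genes had. That run does not measure how well changes of the size seen here would be found.

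The genes and lists were chosen with earlier results of these data known. Genes named in the text are those with an unadjusted p under 0.05, the catalytic subunits, the 3 highest and 3 lowest log2 fold changes of each particle, its highest and lowest level per length, the activators and inhibitor, members that were not tested, and pathway genes with such a p, and Nfe2l1, Pomp, Psmb8, Psmb9 and Psmb10. Psmc6, Psmd1, Psmd4, Psmd14, Psma5 and Psmb4 were named after their values were seen. Positions, exon lengths, promoters and 50-base stretches were taken from the GRCm38.p6 and GENCODE M21 references by scripts in Python 3.11.15, and matplotlib 3.10.9 drew the plots.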

Additional observations from a re-analysis of the deposited data

How the results depend on the processing

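The count of 0 proteasome genes with an adjusted p under 0.05 was the same in all 14 alternative analyses, and the lowest adjusted p of a proteasome gene in them was 0.131, without db/m replicate 3. The number at an unadjusted p under 0.05 was 3, and became 0 with the acinar score, 1 with library size, 0 with a replicate block, and 0 to 5 with each mouse left out. The share of all tested genes with such a p was 14.9% in the main fit and 10.5% with the acinar score. It was 19.1% with library size, 8.84% with the block and 10.8% to 19.8% with each mouse left out. For all tested genes the count with an adjusted p under 0.05 was 79, and became 664 with DESeq2, 42 with the acinar score, 21 with library size, 888 without a filter, 16 with the replicate block, 52 with upper-quartile factors and 10 to 333 with each mouse left out. The count at an unadjusted p under 0.05 was 1905, and became 2905 without a filter and 1128 with the block. The core and regulatory medians were -0.37 and -0.39 with library size, and the regulatory median was -0.055 with the acinar score. The difference of the core and regulatory medians lay between -0.0086 (without db/db replicate 3) and 0.144 (without db/db replicate 2) in the alternatives. The within-group SD of the core minus regulatory mean log2 CPM per mouse was 0.147 with TMM. That is another measure, and the difference of the medians was not tested.

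The labels do not pair the samples, so that no pairing was assumed. Correlations of the deviations from the group mean, taken between samples that share a number, were -0.53, -0.20 and -0.32. Between samples with other numbers they lay between -0.26 and 0.45. With 3 mice a group these correlations depend on each other, so that they cannot exclude a pairing.

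Of 406 values of named genes in the alternatives, 48 changed sign and 358 kept their sign and stayed above the threshold. With library size the log2 fold changes were -0.50 for Psma2, -0.18 for Psma4, -0.033 for Psma7, -0.29 for Psmb1, -0.51 for Psmb2, -0.21 for Psmb5, -0.37 for Psmb6, -0.35 for Psmb7, -0.070 for Psmd10, -0.016 for Psmd5, -0.11 for Psmd6, -0.092 for Psmd8, -0.54 for Psme1, -0.10 for Psme3, -0.34 for Psme4, -0.67 for Pomp and -0.30 for Psmb10. With the acinar score they were -0.37 for Psma2, -0.15 for Psma4, -0.0027 for Psmb1, -0.17 for Psmb2, -0.13 for Psmb7, -0.044 for Psmd6, -0.074 for Psmd8, 0.53 for Psme2, -0.29 for Psme4, 0.030 for Nfe2l1, -0.11 for Psmb10 and 2.41 for Psmb8. Psma3 was at 0.0042 with DESeq2, 0.012 with upper-quartile factors and 0.0012 without abundant genes, and Psmb8 was at 0.21 with the block. With each mouse left out, the values ranged from -0.17 to 0.34 for Psma2, -0.19 to 0.18 for Psma3, -0.15 to 0.32 for Psmb2, -0.10 to 0.43 for Psme1, -0.63 to 0.021 for Psme2, -0.19 to 0.078 for Psmf1, -0.15 to 0.34 for Pomp, -0.032 to 0.93 for Psmb10 and -0.99 to 1.28 for Psmb8. The cause of these changes was not tested. At 19 to 1021 counts per library and 3 mice a group, 27 of 38 intervals lay within 2-fold.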
